A study of Mus musculus with 10 samples.

Results

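The messenger RNAs of 39 splicing genes (SR proteins, CLK kinases and related factors) were followed in mouse bladder lacking OMD or PRELP. The members were listed by name among the 55536 genes of the count files, and they were picked because Rsrp1, Ccnl2, Khdc4 and Sugp2 were lower in the knockouts. The measured values of the knockouts against WT therefore chose this list, and those differences are given as a description, without a test of any member. OMD (osteomodulin) and PRELP are secreted small leucine-rich proteins of the extracellular matrix. Bladder RNA came from C57BL/6 mice in 10 libraries, of which 4 were WT, 3 were OMD-/- and 3 were PRELP-/-, a genotype the labels spell PRLEP-/-. Both knockouts are constitutive, so the gene is lost in every cell, and each replaced the coding sequence with a β-galactosidase reporter, which the WT mice do not carry. No treatment is labelled, and the ages and sexes of the mice and any pooling are not given in the sources used here. The labels describe homogenised bladder tissue, whereas the study speaks of isolated epithelium and gives other numbers of samples for WT and OMD-/- than the labels, which were used. Nothing says that replicates came from separate litters or days, and p-values measure the spread between these libraries.

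Splicing removes introns from pre-mRNA on the spliceosome, and SR proteins, which carry runs of arginine and serine, help it to find exons. CLK kinases phosphorylate SR proteins in the nucleus and release them from nuclear speckles, the stores of splicing factors. Many of these factors control their own amount: a transcript of the gene keeps an intron or gains a poison exon, and it then stays in the nucleus or is destroyed by nonsense-mediated decay. Clk1 and Clk4 are the textbook case, since a pool of their polyadenylated transcripts with retained introns waits in the nucleus and is spliced when the kinases are inhibited. The counts here are sums over whole genes, so spliced and intron-retaining transcripts of a gene were added together and no intron was measured by itself.

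Of the 39 members, 35 have at least 1 transcript annotated as retained intron in GENCODE vM21 (build GRCm38), and together these make up 158 of the members' 458 transcripts. The members without one are Srsf9, Srsf10, Pnisr and Ddx17. In 15 members at least 50% of the exonic bases occur only in retained-intron transcripts, from 51.3% in Ccnl2 to 74.0% in Rbm5. In 25 members an intron of a coding transcript lies whole inside an exon of a retained-intron transcript. Introns that contain another such intron of the same gene were left out, and 54 remained. Their median length was 419.5 bases and their median GC content 39.8%. The values were 252 bases and 51.3% for 7737 introns kept by the same rule in 3945 other protein-coding genes. All 54 began with GT and ended with AG, and 10 of them (18.5%) began with the letters GTAAGT on the gene's strand, against 728 (9.41%) of the others. These are properties of the annotation and hold for no sample in particular.

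Letters from 6 such introns are printed because they belong to the members with large differences between genotypes. A start has the last 6 exon bases and the first 14 intron bases, and an end, shown for 4 of the introns, has the last 22 intron bases and the first 6 exon bases, with the GT and AG at the intron's limits in capitals, read 5′ to 3′ on the gene's strand. Clk1 and Clk4, which are paralogs, keep a pair of introns on either side of one exon, and the lines show the same letters caagatGTatagaatatttt at the start of the downstream intron in both genes.
Clk1 upstream intron, chr1:58420212-58421082, minus strand, start: cacgggGTatgagtgccttt
Clk1 upstream intron, end: gccgcccacttgacgtgtccAGaagagt
Clk4 upstream intron, chr11:51272023-51273077, plus strand, start: cattcgGTatgagtggtttg
Clk4 upstream intron, end: tgctgcccacttgccgttccAGaagagc
Clk1 downstream intron, chr1:58419734-58420120, minus strand, start: caagatGTatagaatatttt
Clk4 downstream intron, chr11:51273169-51273559, plus strand, start: caagatGTatagaatatttt
Ccnl2 intron, chr4:155817988-155820328, plus strand, start: tgcatgGTgagttgattttc
Ccnl2 intron, end: gtcttcctggttttggtttcAGgaacta
Rsrp1 intron, chr4:134925433-134926734, plus strand, start: gtggagGTaagtgccttcag
Rsrp1 intron, end: ttaaaattctcttcctctttAGcattca

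The exon between these introns is 91 bases long in both kinases (chr1:58420121-58420211, minus strand, in Clk1 and chr11:51273078-51273168, plus strand, in Clk4), and 85 of the 91 bases (93.4%) are identical. Capitals mark the bases that are the same in both.
Clk1 exon: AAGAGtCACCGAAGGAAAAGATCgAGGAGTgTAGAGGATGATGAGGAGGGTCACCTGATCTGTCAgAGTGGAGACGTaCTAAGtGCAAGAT
Clk4 exon: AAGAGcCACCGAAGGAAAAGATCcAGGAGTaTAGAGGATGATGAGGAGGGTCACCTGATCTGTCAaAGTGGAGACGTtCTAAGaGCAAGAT
Reads from such shared stretches can match both genes, and how they were counted is not given in the sources used here, so the split of counts between Clk1 and Clk4 is uncertain there.

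Total counts were between 20391437 and 46269079 per library, and each value below is in CPM, the counts of a gene per 1000000 counts of its library after TMM normalization, a scaling that assumes most genes to be equal between libraries. Prelp, targeted in PRELP-/-, was at 4.20, 1.84 and 2.11 CPM there, against 317, 284, 255 and 215 CPM in the WT libraries and 772, 824 and 826 CPM in those of OMD-/-. Omd was counted 0, 1, 8 and 12 times in WT, 0 times in each OMD-/- library and from 5 to 7 times in PRELP-/-, and was too rare in WT to check the OMD-/- labels. Urothelial markers were present in all libraries, as were markers of smooth muscle, fibroblasts, leukocytes, endothelium and nerve, with none of the 44 markers at 0 throughout. PRELP-/- replicate 1 stood apart: its median log2 ratio to PRELP-/- replicates 2 and 3 was 0.49 over the shortest and -0.56 over the longest of 4 equal classes of genes by exonic length. Counts of Y-linked genes, summed over 4 genes, were 189 and 163 CPM in WT replicates 1 and 2, 0 in WT replicate 3 and 0.0443 CPM in WT replicate 4. In PRELP-/- they were 120 CPM in replicate 1 and 18.8 and 18.5 CPM in replicates 2 and 3. In OMD-/- they were 18.1 CPM in replicate 1 and 0.81 and 0.73 CPM in replicates 2 and 3. No 2 libraries of a group agreed within sampling noise, the closest being OMD-/- replicates 2 and 3, and all were kept as separate libraries.

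Most of the 39 genes were lower in both knockouts, and none was called higher in either. In OMD-/- against WT, 33 of 38 tested members were called lower at an adjusted p under 0.05 (edgeR quasi-likelihood test), where 15.1% of all 16647 tested genes were called lower and 29.4% in either direction. In PRELP-/- against WT, 25 of 39 were called lower, where 5.89% of all 16581 tested genes were, and 7.29% in either direction. These counts use the contrasts behind the choice of the list, so nothing is read from them. The median log2 fold change of the members was -0.90 in OMD-/- and -0.92 in PRELP-/-, and over all tested genes it was -0.00020 and 0.023. The 25 members called in PRELP-/- were all among the 33 called in OMD-/-, and the 2 comparisons share the 4 WT libraries. Called higher were 0 members in either knockout by edgeR, against 14.3% of all genes in OMD-/- and 1.4% in PRELP-/-, and at an unadjusted p under 0.05 these counts were 1 and 0. By limma-voom 2 members, Srrm1 and Sugp1, were called higher in OMD-/- and 1, Srrm1, in PRELP-/-, and by DESeq2 none was. Limma-voom called 3663 of all 16647 genes higher in OMD-/- and 3402 of 16581 in PRELP-/-.

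**Figure D1:**
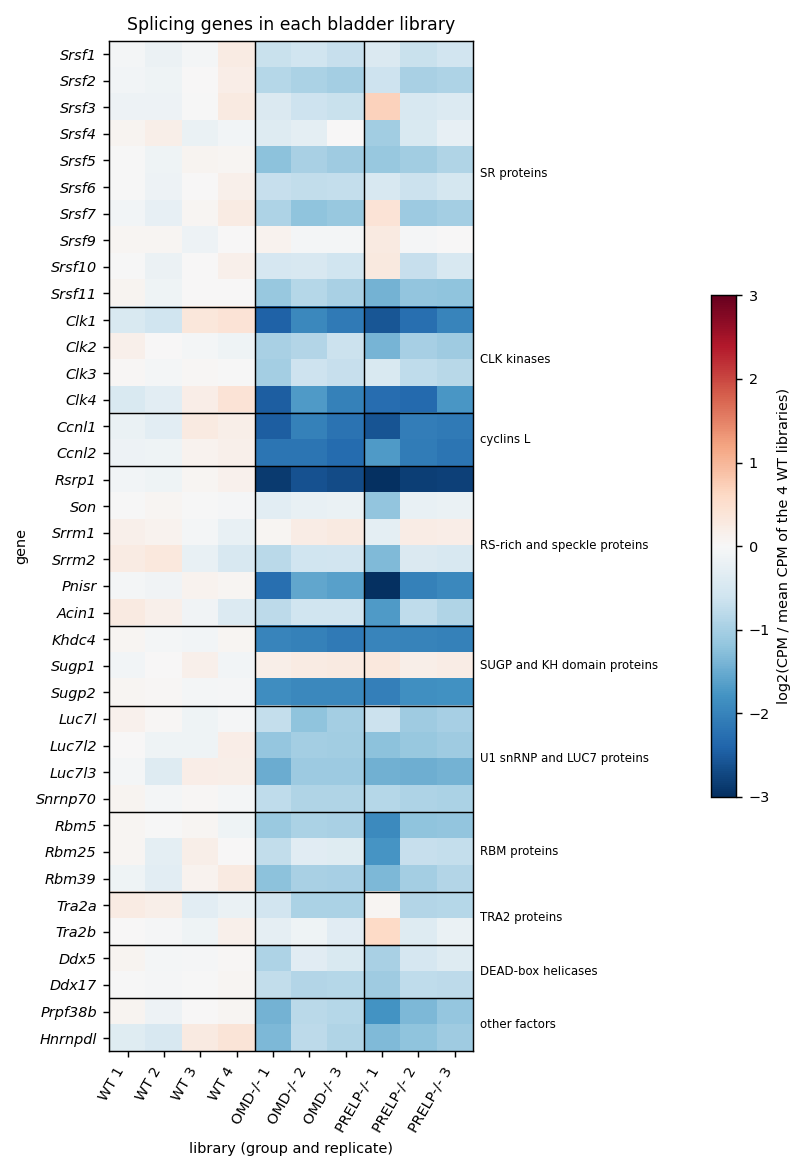
Log2 ratio of each library's CPM to the mean CPM of the 4 WT libraries for 38 splicing genes (rows, by role) in the 10 libraries (columns), blue for lower and red for higher; U2af1l4, with at most 14 counts in a library, is left out. The OMD-/- and PRELP-/- columns are blue in most rows, and PRELP-/- replicate 1 is red for Srsf3, Srsf7 and Tra2b, where PRELP-/- replicates 2 and 3 are blue.

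Rsrp1, Ccnl2, Khdc4 and Sugp2, on which the choice rested, were each lower in every knockout library than in every WT library. Rsrp1, a small protein rich in arginine and serine, was at 316, 303, 348 and 365 CPM in the WT libraries, 45.6, 54.5 and 51.4 in those of OMD-/- and 23.98, 46.97 and 47.7 in those of PRELP-/-. It was 6.59-fold lower in OMD-/- and 8.49-fold lower in PRELP-/-, with a log2 fold change of -2.72 (SE 0.11) in OMD-/- and -3.09 (SE 0.27) in PRELP-/-, and had the lowest fold change of the list in both comparisons. PRELP-/- replicate 1 was the lowest library, at 0.506 of the mean of the other two.

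Ccnl2 encodes an L-type cyclin, a partner of CDK11 kinases found in nuclear speckles. Its values were 100.1, 102, 121 and 125 CPM in the WT libraries, 24.5, 24.5 and 22.6 in those of OMD-/- and 34.4, 26.1 and 24.4 in those of PRELP-/-, a log2 fold change of -2.23 (SE 0.11) in OMD-/- and -2.01 (SE 0.17) in PRELP-/-. Ccnl1, its paralog, was at 44.4, 41.4, 61.96 and 57.6 CPM in the WT libraries, 9.19, 12.7 and 11.01 in those of OMD-/- and 8.52, 12.1 and 11.7 in those of PRELP-/-, and its log2 fold changes were -2.22 (SE 0.18) and -2.26 (SE 0.22). The 2 cyclins differed between WT and the knockouts by similar amounts, and within WT Ccnl1 was 1.39 times as high in replicates 3 and 4 as in replicates 1 and 2. Ccnl1 shares 442 exonic bases with Gm37305, a gene on the opposite strand at 13.9 CPM. Its level is therefore uncertain if strand was not used in counting.

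Khdc4, an RNA-binding protein with a KH domain, was at 77.4, 71.9, 70.3 and 77.9 CPM in the WT libraries, 18.8, 18.1 and 17.001 in those of OMD-/- and 18.9, 18.6 and 18.2 in those of PRELP-/-. The libraries within each genotype lay close together, and it was 4.14-fold lower in OMD-/- and 4.07-fold lower in PRELP-/-. Sugp2, which carries SURP and G-patch domains, was at 43.1, 42.2, 39.9 and 40.7 CPM in the WT libraries, 11.5, 10.9 and 10.8 in those of OMD-/- and 10.1, 11.5 and 11.8 in those of PRELP-/-, a log2 fold change of -1.91 (SE 0.09) in OMD-/- and -1.92 (SE 0.14) in PRELP-/-. Reads of Sugp2 may include those of Armc6, at 6.10 CPM, which overlaps it on the opposite strand by 241 exonic bases, if strand was not used in counting. Sugp1, its relative that acts with SF3B1 in the choice of branch points, went the other way and was at 38.8, 41.4, 45.6 and 38.5 CPM in the WT libraries, 46.4, 48.8 and 49.4 in those of OMD-/- and 51.5, 46.3 and 47.6 in those of PRELP-/-, with log2 fold changes of 0.23 (SE 0.09) and 0.22 (SE 0.13). Neither value was called by edgeR with all libraries, although limma-voom, and edgeR without WT replicate 3, called Sugp1 higher in OMD-/- and all 6 knockout libraries were above the highest WT library.

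**Figure D2:**
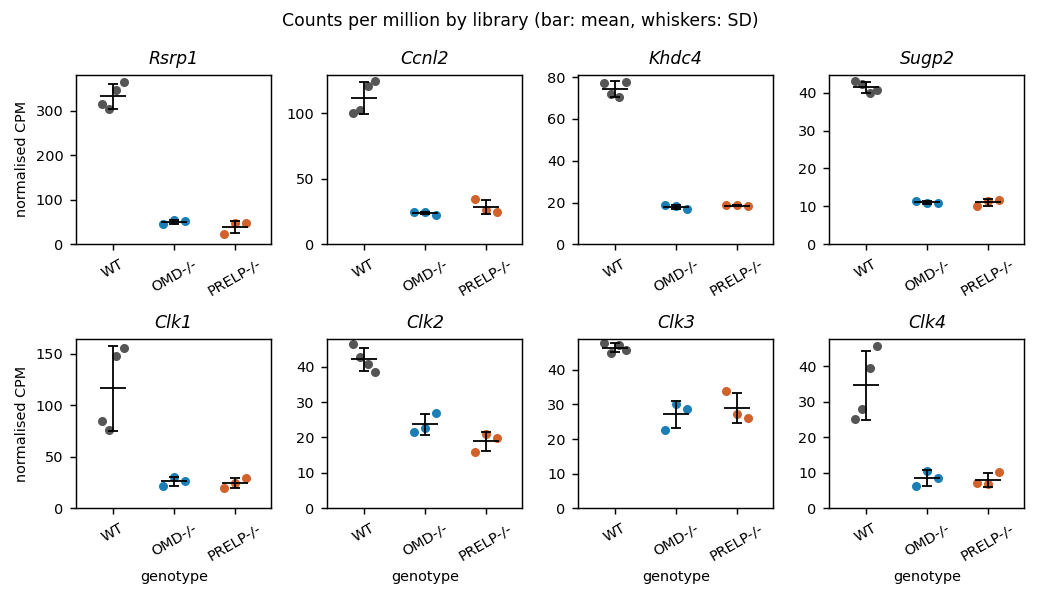
Normalised CPM (vertical axes, starting at 0) of Rsrp1, Ccnl2, Khdc4, Sugp2 and the 4 CLK kinases in each WT, OMD-/- and PRELP-/- library (points), with the mean (bar) and SD (whiskers) of each genotype, n = 4, 3 and 3. No knockout point reaches the lowest WT point in any panel, and the WT points of Clk1 and Clk4 lie in 2 pairs.

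The 4 CLK kinases, which phosphorylate SR proteins, were lower in both knockouts, Clk1 and Clk4 by more than Clk2 and Clk3. Clk1 was at 85.3, 76.4, 148 and 156 CPM in the WT libraries, 21.5, 30.5 and 26.8 in those of OMD-/- and 19.6, 24.4 and 29.4 in those of PRELP-/-. Clk4, whose exon and flanking introns are printed beside those of Clk1, was at 25.2, 27.9, 39.6 and 45.8 CPM in the WT libraries, 6.22, 10.7 and 8.50 in those of OMD-/- and 7.16, 6.85 and 10.4 in those of PRELP-/-. The WT libraries of both fell into a low and a high pair, replicates 3 and 4 being 1.88 times replicates 1 and 2 for Clk1 and 1.61 times for Clk4, and the lowest WT library was still above the highest knockout library. The log2 fold changes were -2.15 (SE 0.30) and -2.27 (SE 0.31) for Clk1. For Clk4 they were -2.03 (SE 0.26) and -2.10 (SE 0.27), and the SE of both genes was wider than that of most members.

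Clk2 and Clk3 showed no such split within WT. Clk2 was at 46.3, 42.6, 40.6 and 38.4 CPM in the WT libraries, 21.4, 22.7 and 26.9 in those of OMD-/- and 15.96, 20.96 and 19.9 in those of PRELP-/-, a log2 fold change of -0.83 (SE 0.11) in OMD-/- and -1.16 (SE 0.16) in PRELP-/-. Clk3 was at 47.7, 44.9, 47.3 and 45.9 CPM in the WT libraries, 22.7, 30.03 and 28.7 in those of OMD-/- and 33.97, 27.3 and 26.01 in those of PRELP-/-, with log2 fold changes of -0.77 (SE 0.11) and -0.70 (SE 0.14). For both, all knockout libraries were below all WT libraries. Clk3 shares 1284 exonic bases with Edc3, a gene on the opposite strand at 51.2 CPM, so its level is uncertain if strand was not used.

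Of the 10 SR proteins, 8 were called lower in OMD-/- and 5 in PRELP-/-, where 15.1% and 5.89% of all tested genes were. The medians of the group were -0.69 in OMD-/- and -0.56 in PRELP-/- on the log2 scale. The list was picked with these contrasts known, so nothing is read from the counts. Srsf1, the founding member of the family, was at 169.8, 157, 169.6 and 209 CPM in the WT libraries, 111, 116 and 109 in those of OMD-/- and 131, 111 and 119 in those of PRELP-/-. Srsf2, a component of speckles that binds exonic enhancers, was at 121, 118, 129 and 147 CPM in the WT libraries, 71.1, 66.5 and 63.1 in those of OMD-/- and 84.1, 65.6 and 67.5 in those of PRELP-/-. Both were lower in each knockout library than in any WT library, with log2 fold changes of -0.66 and -0.58 for Srsf1 and -0.95 and -0.85 for Srsf2, although 2 genes on the opposite strand, Mettl23 and Mfsd11, overlap Srsf2. Srsf5 had the lowest OMD-/- value of the group, at 268, 247, 286 and 284 CPM in the WT libraries, 116, 139 and 129 in those of OMD-/- and 124, 132 and 145 in those of PRELP-/-, and was 2.12-fold and 2.06-fold lower.

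Srsf3, which also couples splicing to export, was at 127, 127, 140.4 and 171 CPM in the WT libraries, 105, 91.6 and 89.1 in those of OMD-/- and 229.6, 102 and 106 in those of PRELP-/-. It was lower in all OMD-/- libraries, and in PRELP-/- replicates 2 and 3, than in any WT library, while PRELP-/- replicate 1 was above all WT libraries. Its log2 fold change in PRELP-/- was 0.02 (SE 0.28) with that library and -0.43 without it. In Srsf7, Srsf10, Tra2a and Tra2b that library likewise stood above the others of its genotype, at 2.75, 1.82, 1.89 and 1.84 times the mean of PRELP-/- replicates 2 and 3. In OMD-/- the log2 fold changes of Srsf7 and Srsf10 were -1.08 and -0.53, and both were called.

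Other SR proteins differed little or by steady amounts. Srsf9 was at 56.4, 56.4, 48.7 and 54.4 CPM in the WT libraries, 57.7, 51.6 and 51.5 in those of OMD-/- and 64.9, 53.1 and 54.8 in those of PRELP-/-, with log2 fold changes of -0.01 (SE 0.09) and 0.07 (SE 0.13), and its groups overlapped. Srsf4 had -0.22 and -0.56 and was called in neither by edgeR, while limma-voom called it lower in PRELP-/-. Srsf6 had -0.73 and -0.57, and Srsf11 -0.98 and -1.29, all called.

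**Figure D3:**
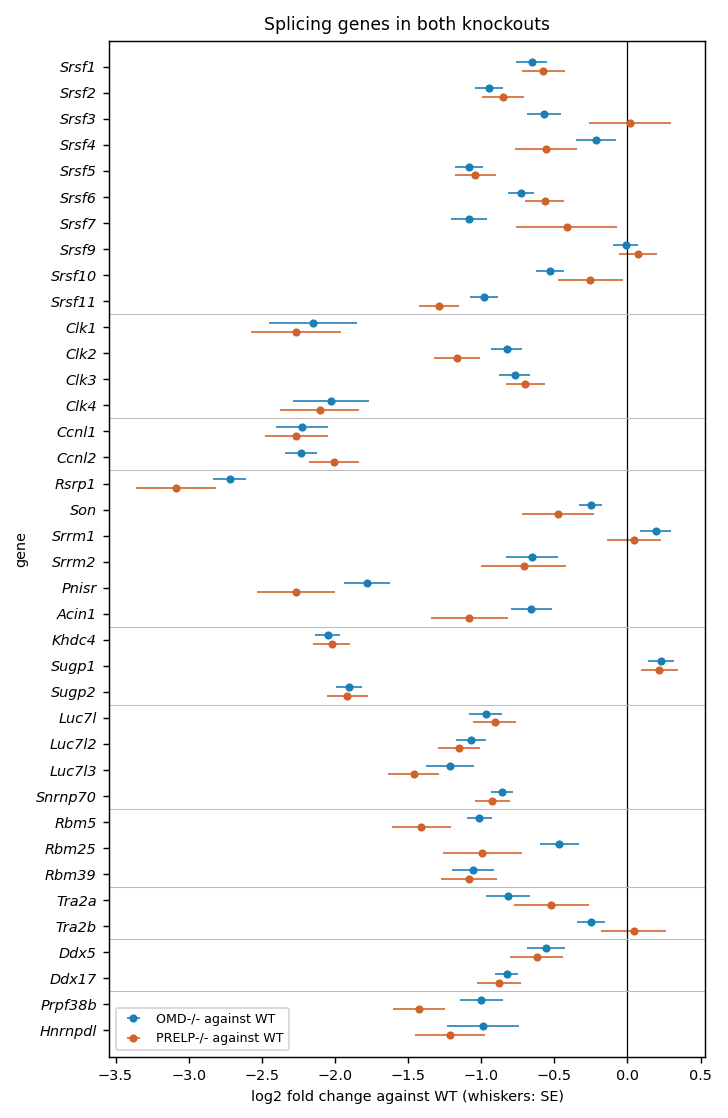
Log2 fold change against WT (horizontal axis, whiskers 1 SE) of 38 splicing genes, grouped by role, in OMD-/- (blue) and PRELP-/- (orange). The points of the 2 knockouts lie near each other for most genes, from Rsrp1 at -2.72 and -3.09 to Sugp1 at 0.23 and 0.22, and are farthest apart for Srsf7, at -1.08 and -0.42.

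Among the proteins rich in RS repeats that build speckles, Pnisr was lowest after Rsrp1. Pnisr, a partner of pinin, had log2 fold changes of -1.78 (SE 0.16) and -2.27 (SE 0.27), and its 3 PRELP-/- libraries ranged from 12.9 to 27.4 CPM against 97.1 to 113 in WT. Acin1, of the exon junction-associated ASAP complex, had -0.66 and -1.08, and Srrm2, a large speckle scaffold, had -0.65 and -0.71. Son, the other scaffold of speckles, had -0.25 and -0.48. In Acin1, Srrm2 and Son, PRELP-/- replicate 1 was at 0.544, 0.547 and 0.504 of the mean of PRELP-/- replicates 2 and 3. Srrm1, a coactivator that bridges SR proteins, was at 273, 261, 234 and 208 CPM in the WT libraries, 255, 286 and 296 in those of OMD-/- and 199, 286 and 278 in those of PRELP-/-, and its groups overlapped in both comparisons, with log2 fold changes of 0.19 (SE 0.11) and 0.04 (SE 0.18).

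The proteins of the U1 snRNP and its LUC7 family, which recognise the 5′ splice site, were lower in each knockout library than in any WT library in 4 of 4 genes. Of all tested genes, 19.7% were so in OMD-/- and 16.4% in PRELP-/-, and the list was picked with these contrasts known. Luc7l3 was at 96.2, 76.8, 116 and 114 CPM in the WT libraries, 35.8, 47.1 and 47.5 in those of OMD-/- and 37.1, 36.3 and 37.8 in those of PRELP-/-, with log2 fold changes of -1.21 (SE 0.16) and -1.46 (SE 0.17). Snrnp70, the U1-70K protein that contacts SR proteins, was at 176, 162, 172 and 161 CPM in the WT libraries, 98.8, 89.96 and 89.2 in those of OMD-/- and 93.1, 88.9 and 87.2 in those of PRELP-/-. Its log2 fold changes were -0.86 (SE 0.08) and -0.92 (SE 0.12). Luc7l had -0.97 and -0.91 and Luc7l2 -1.07 and -1.15.

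The 3 RBM proteins, which steer alternative exons, were each called lower in OMD-/-, where 15.1% of all tested genes were. Rbm39, a relative of U2AF, was at 183, 160.5, 216 and 244 CPM in the WT libraries, 86.03, 103 and 101 in those of OMD-/- and 79.6, 98.9 and 109 in those of PRELP-/-, which gave log2 fold changes of -1.06 and -1.09. Rbm25, which acts with the U1 snRNP, was at 140.1, 109, 150.5 and 136 CPM in the WT libraries, 80.6, 105 and 105 in those of OMD-/- and 39.2, 82.4 and 81.99 in those of PRELP-/-. By edgeR Rbm25 was called lower in OMD-/- (-0.47) and not in PRELP-/- (-0.99, SE 0.27), where replicate 1 was at 0.477 of the mean of the other libraries and the value without it was -0.69. Rbm5 had -1.01 and -1.41, called in both.

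Tra2a and Tra2b bind purine-rich exonic enhancers, and neither was called in PRELP-/- by edgeR or DESeq2, while limma-voom called both lower there. Tra2a was at 84.1, 79.7, 57.2 and 61.9 CPM in the WT libraries, 47.7, 36.6 and 36.4 in those of OMD-/- and 73.2, 38.6 and 38.9 in those of PRELP-/-, and its log2 fold changes were -0.82 (SE 0.15) and -0.52 (SE 0.26), the second being -0.86 without PRELP-/- replicate 1. Tra2b was at 59.2, 57.7, 53.9 and 65.3 CPM in the WT libraries, 49.1, 53.6 and 46.4 in those of OMD-/- and 89.03, 45.4 and 51.1 in those of PRELP-/-, and its log2 fold changes were -0.25 (SE 0.09) and 0.04 (SE 0.22). Without PRELP-/- replicate 1 the Tra2b value was -0.28, and the 2 other PRELP-/- libraries were below all WT libraries.

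The RNA helicases Ddx5 and Ddx17, paralogs that unwind RNA at splice sites and promoters, had among the highest levels. Ddx5 was at 681, 617, 628 and 666 CPM in the WT libraries, 343, 508 and 469 in those of OMD-/- and 332, 453 and 495 in those of PRELP-/-, with log2 fold changes of -0.56 (SE 0.13) and -0.62 (SE 0.18). Ddx17 was at 469, 459, 464 and 493 CPM in the WT libraries, 282, 257 and 260.3 in those of OMD-/- and 224, 279 and 275 in those of PRELP-/-, with -0.83 (SE 0.08) and -0.88 (SE 0.15). Both had every knockout library below every WT library, and the PRELP-/- value of Ddx5 was not called by edgeR but was by DESeq2 and limma-voom.

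Of the remaining factors, Prpf38b, a spliceosomal protein, was at 75.3, 63.999, 72.02 and 73.6 CPM in the WT libraries, 26.5, 40.8 and 39.6 in those of OMD-/- and 20.7, 27.9 and 31.8 in those of PRELP-/-, with log2 fold changes of -0.999 and -1.43. Hnrnpdl, an RNA-binding protein that controls its own transcript through a poison exon, was at 74.6, 68.2, 115 and 126 CPM in the WT libraries, 37.4, 55.9 and 51.5 in those of OMD-/- and 38.1, 41.8 and 45.6 in those of PRELP-/-. Its WT libraries split as those of the CLK kinases did, replicates 3 and 4 being 1.69 times replicates 1 and 2, and its log2 fold changes were -0.99 (SE 0.25) and -1.21 (SE 0.24). U2af1l4, a paralog of the small U2AF subunit, had from 4 to 14 counts per library and was not tested in OMD-/-. Its PRELP-/- value of 0.29 (SE 0.55) is uncertain, as Gm49396 covers 1086 of its exonic bases on the same strand.

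Counting libraries in place of fold changes gave the same picture. In OMD-/-, 34 of 38 members had every OMD-/- library below every WT library, where 19.7% of all tested genes did, and 1 member, Sugp1, had every OMD-/- library above, where 19.2% did. In PRELP-/-, 29 of 39 had every library below, where 16.4% did, and Sugp1 alone had every library above, where 13.6% did. Both lower counts again follow from the contrasts that chose the list. 8 members had log2 fold changes below -1.5 in both comparisons: Rsrp1, Ccnl1, Ccnl2, Clk1, Clk4, Khdc4, Pnisr and Sugp2. By edgeR another 8 were called in OMD-/- but not in PRELP-/- (Srsf3, Srsf7, Srsf10, Son, Srrm2, Rbm25, Tra2a and Ddx5). Of these, DESeq2 called Rbm25 and Ddx5 in PRELP-/-, and limma-voom called all but Son and Srrm2, so the gap depends on the tool. The direct comparison of the knockouts bears on it.

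Which members differ between PRELP-/- and OMD-/- was tested directly, a comparison that uses no WT library. By edgeR 0 of 38 members were called and 0 had an unadjusted p under 0.05, where 0.00633% of all 15805 tested genes were called, a single gene, Prelp itself. By DESeq2 0 members were called, and by limma-voom with sample weights 3, Luc7l3, Rbm25 and Srsf11, all lower in PRELP-/-. Limma-voom called 694 of all 15805 genes lower there and 318 higher. The smallest adjusted p of a member in edgeR was 0.690. The median difference (PRELP-/- minus OMD-/-, log2) was -0.04, and over all genes it was -0.0020. With the replicate number as a block the count of members called stayed at 0.

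The intervals of these differences show what the libraries could resolve. For Sugp2 the difference was 0.00 with a 95% interval from -0.35 to 0.35, and for Khdc4 it was 0.04 (-0.26 to 0.34), so differences beyond about these limits lie outside the intervals. Clk1 differed by -0.11 (-0.61 to 0.40) and Rsrp1 by -0.35 (-1.02 to 0.31). The widest interval was that of Srsf7, from -0.27 to 1.62 around 0.67, the highest difference of the list. The lowest was that of Rbm25, at -0.51 (-1.25 to 0.22), and without PRELP-/- replicate 1 it was -0.24. Every PRELP-/- library was below every OMD-/- library for 3 members, Clk2, Srsf11 and Rbm5, where 8.72% of all tested genes were, and above for 1, Srsf6, where 6.38% were.

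Levels between members can be compared only per length. In WT, Ddx5 had the highest level per exonic length, at 389.8 ± 31.5 TPM (CPM divided by the length of the annotated exons and rescaled to a sum of 1000000, SD, n = 4), followed by Rsrp1 at 344 ± 19.4. Srsf5 at 236 ± 11.7 and Ddx17 at 214 ± 10.8 came next. The first 2 and the next 2 lay within their summed SD of each other, and the gap between Rsrp1 and Srsf5 was wider than theirs. The lowest tested levels were those of Sugp2 at 9.99 ± 0.836 and Srsf4 at 15.1 ± 2.38 TPM, and U2af1l4 was at 0.784 ± 0.356. Exons of retained-intron transcripts are part of that length, which lowers the level per length of genes with many of them.

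Members varied among themselves within a genotype as well. In WT, 6 of the 38 members tested in both knockouts were more than 1.3 times as high in replicates 3 and 4 as in replicates 1 and 2, among them Clk1, Clk4, Ccnl1 and Hnrnpdl. In 3 members, Srrm2, Acin1 and Tra2a, the order was the reverse, by 1.55, 1.37 and 1.38 times. This split runs along the Y-linked counts given above. It also runs along summed smooth muscle markers, at 336 and 318 CPM in WT replicates 1 and 2 and 1311 and 1148 CPM in WT replicates 3 and 4. Summed endothelial markers were at 361 and 373 CPM in WT replicates 1 and 2 and 172 and 158 CPM in WT replicates 3 and 4. The part of each in the members' values was not tested. In PRELP-/-, replicate 1 was above 1.3 times the mean of replicates 2 and 3 in 7 of the 38 members and under 0.7 of it in 9. These members did not all follow that library's dependence on exonic length. Srsf3 and Tra2b, with 7899 and 9235 exonic bases, were above, and Rsrp1, with 3349, was under, while Son, with 14907, was under as well. The part of exonic length in the PRELP-/- values was not tested. Without replicate 1, 31 members were called lower in PRELP-/-, the 25 above and Srsf3, Srsf7, Srsf10, Rbm25, Tra2a and Ddx5, and without replicate 2 it was 17. Over all genes the share called lower moved likewise, to 11.5% without replicate 1 and 2.58% without replicate 2.

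Other genes of the splicing and RNA decay machinery were counted from 11 lists of 158 genes, none of them members. In OMD-/-, 37 of 156 tested genes were called lower and 16 higher, against 15.1% and 14.3% of all genes, and the median log2 fold change was -0.02. In PRELP-/-, 18 were called lower and 0 higher, against 5.89% and 1.4%, with a median of -0.05. Genes called higher in PRELP-/- numbered 0 by edgeR, 8 at its unadjusted p under 0.05, 3 by DESeq2 and 23 by limma-voom. Over all genes DESeq2 called 924 of 20249 higher there, and limma-voom 3402 of 16581. The 18 genes called lower in PRELP-/- were also called lower in OMD-/-, and no gene was called higher in both. Without PRELP-/- replicate 1 the count of 18 was 36.

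The members were picked for their values, and the lists of core parts of the spliceosome were made with earlier results of these data known. A difference in shift between these lists and the members can follow from these choices and was not tested. Of 10 genes of the Sm ring and U1 core, 0 were called in either knockout by edgeR, and their medians were 0.10 and 0.36. The U2 snRNP list had 5 of 16 genes higher and 2 lower in OMD-/-, among them Sf3a1, at 0.60 (adjusted p = 0.00343, edgeR), and Sf3b1, at -0.55 (adjusted p = 0.0126), and no calls in PRELP-/-. In the tri-snRNP, 5 of 13 were higher in OMD-/-, including Prpf8, the centre of the catalytic core, at 0.59 (adjusted p = 0.00440, edgeR), and 0 lower. The Prp19 complex and step factors had 5 higher and 2 lower of 16. In PRELP-/- 0 genes of these 4 lists were called.

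Regulatory and decay factors were counted likewise. Over all tested genes, 15.1% were called lower and 14.3% higher in OMD-/-, and 5.89% lower in PRELP-/-. Of 29 tested factors with RS or RNA-binding domains outside the members, 13 were lower in OMD-/- and 6 in PRELP-/-, with medians of -0.15 and -0.43. Of 27 hnRNP proteins, 4 were lower and 1 higher in OMD-/- and 3 lower in PRELP-/-. Their 14.8% lower in OMD-/- was near the share over all genes. Of 10 SR protein kinases, importers and related kinases, 3 were lower in OMD-/- and 1, Srpk1, in PRELP-/-. The exon junction complex had 2 of 8 lower in OMD-/- and 1, Pnn, in PRELP-/-. Of 10 genes of nonsense-mediated decay, 3 were lower in OMD-/- and 2 in PRELP-/-, and of 14 tested genes of the nuclear exosome and nuclear poly(A) binding, 5 and 2. PRELP-/- counts of 1 or 2 genes are too few to set against the share over all genes.

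**Figure D4:**
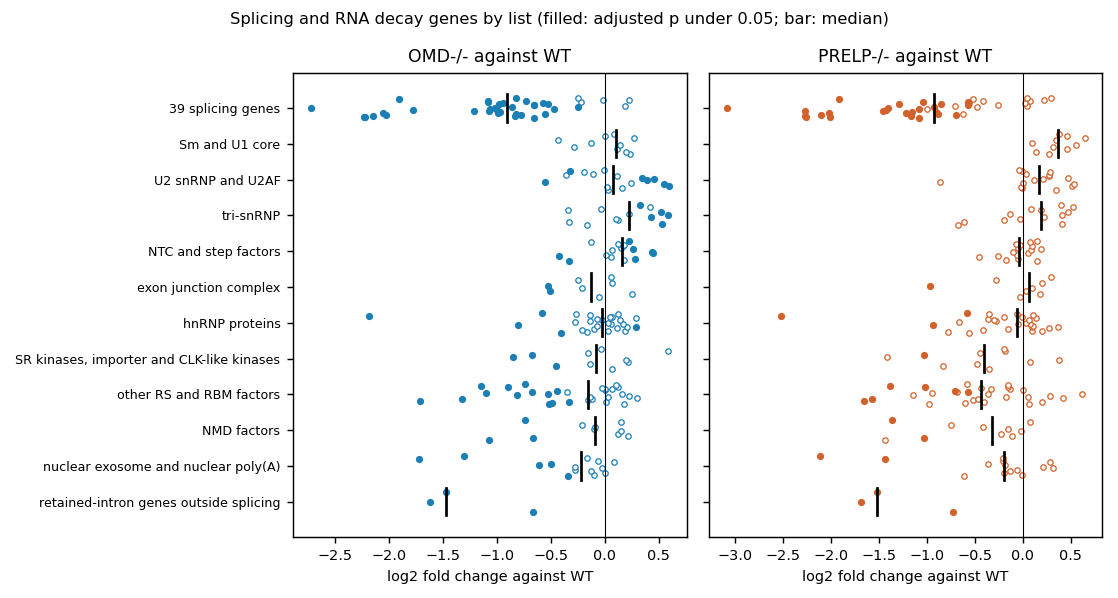
Log2 fold change against WT (horizontal axes) of the 39 splicing genes and of 11 lists of other splicing and RNA decay genes (rows) in OMD-/- (left) and PRELP-/- (right); each point is a gene, filled where the adjusted p was under 0.05, and the bar is the median of the row. The 39 genes, with medians of -0.90 and -0.92, lie left of the core spliceosome rows, whose medians are between -0.04 and 0.36.

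The lowest of the other genes that were called in both knockouts were Ptbp2, Zfc3h1, Prpf39, Nxf1 and Pabpn1. They were picked by these calls, so each adjusted p given for them was under 0.05 by that choice. Ptbp2, a splicing repressor kept low outside neurons by the skipping of an exon, which leads to decay of the transcript, was at 15.9, 17.2, 25.3 and 32.96 CPM in the WT libraries, 3.39, 6.28 and 5.30 in those of OMD-/- and 2.67, 4.45 and 4.83 in those of PRELP-/-. Its log2 fold changes were -2.19 (adjusted p = 0.00105, edgeR) and -2.52 (adjusted p = 0.00368). Prpf39, a U1-associated protein, had -1.71 (adjusted p = 0.000182, edgeR) and -1.66 (adjusted p = 0.0167). It shares 599 exonic bases with Fkbp3, on the opposite strand at 31.9 CPM, so its level is uncertain if strand was not used.

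Zfc3h1 and Pabpn1 act on polyadenylated RNA that stays in the nucleus. Zfc3h1, which links such RNA to the exosome, was at 45.004, 52.4, 51.8 and 56.3 CPM in the WT libraries, 16.6, 23.8 and 21.9 in those of OMD-/- and 5.45, 15.3 and 14.98 in those of PRELP-/-, and its log2 fold changes were -1.30 (adjusted p = 0.000104, edgeR) and -2.12 (adjusted p = 0.00865). Pabpn1, the nuclear poly(A)-binding protein, whose own transcript is known to retain an intron, was at 35.6, 33.9, 39.6 and 41.7 CPM in the WT libraries, 12.7, 11.3 and 10.3 in those of OMD-/- and 18.2, 11.7 and 12.6 in those of PRELP-/-, with -1.72 (adjusted p = 6.06e-06, edgeR) and -1.44 (adjusted p = 0.00331). For both genes every knockout library was below every WT library.

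A further 3 genes outside splicing are known for retained introns that set their level. All 3 were called lower in both knockouts, where 15.1% (OMD-/-) and 5.89% (PRELP-/-) of all tested genes were. Ogt, the O-GlcNAc transferase, was at 187, 173, 195 and 211 CPM in the WT libraries, 69.95, 66.2 and 70.8 in those of OMD-/- and 55.1, 72.8 and 75.2 in those of PRELP-/-, with log2 fold changes of -1.47 (adjusted p = 2.89e-06, edgeR) and -1.52 (adjusted p = 0.00142). Nxf1, the main export receptor of mRNA, was at 124, 114, 127 and 113 CPM in the WT libraries, 35.5, 40.5 and 40.5 in those of OMD-/- and 32.8, 40.8 and 39.5 in those of PRELP-/-, with -1.62 (adjusted p = 1.44e-06, edgeR) and -1.68 (adjusted p = 0.000485). Mat2a, which makes S-adenosylmethionine, was at 100.1, 90.7, 126 and 136 CPM in the WT libraries, 68.4, 74.5 and 72.1 in those of OMD-/- and 66.9, 70.2 and 71.1 in those of PRELP-/-, with -0.66 (adjusted p = 0.00575, edgeR) and -0.72 (adjusted p = 0.0376). Their knockout libraries all lay below their WT libraries. The list was chosen with earlier results of these data known, so its calls and p-values are a description.

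Across all other protein-coding genes, the share called lower was higher where more retained-intron transcripts are annotated. In OMD-/- it was 9.48% of 6064 genes with none, 12.2% with 1, 16.3% with 2 or 3, 21.7% with 4 to 6 and 33.2% of 307 genes with 7 or more. In PRELP-/- the same shares were 2.98%, 3.45%, 5.31%, 7.82% and 15.0%. The share called higher went from 16.3% to 11.4% in OMD-/- and from 1.76% to 0.326% in PRELP-/- between the first and the last class. Median CPM, from 16.9 to 51.1, and median exonic length, from 3435 to 8395 bases, moved with the number of such transcripts in OMD-/- against WT, and their part was not tested. Genes are not independent replicates, and these shares carry no test.

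**Figure D5:**
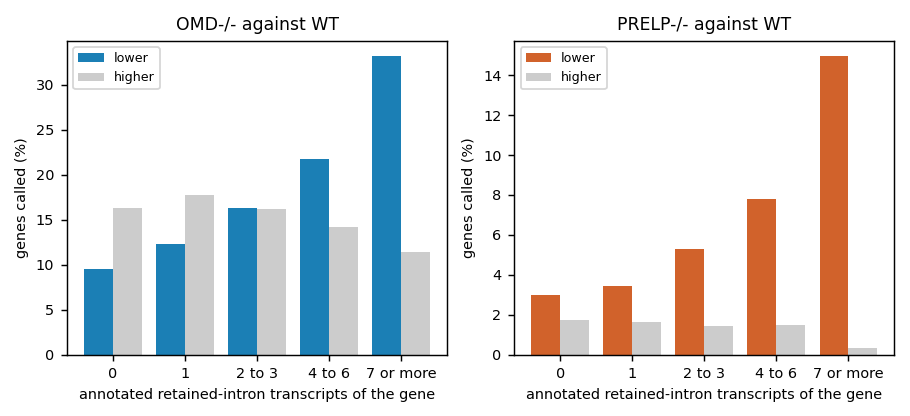
Percentage of protein-coding genes outside the 39 that were called lower (coloured) or higher (grey) at an adjusted p under 0.05, by the number of retained-intron transcripts annotated for the gene, in OMD-/- (left) and PRELP-/- (right) against WT. The coloured bars go from 9.48% to 33.2% and from 2.98% to 15.0%, and the vertical axes of the 2 panels differ.

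The members can be split by the same annotation. The median log2 fold change in OMD-/- was -0.68 for the 4 members with no such transcript, -0.73 for the 5 with 1, -0.99 for the 13 with 2 or 3, -0.71 for the 8 with 4 to 6 and -1.04 for the 8 tested with 7 or more. In PRELP-/- the medians of the same classes were -0.57, -0.62, -0.91, -0.85 and -1.29, the last over 9 members with U2af1l4 included. In both knockouts the class with none had the highest median and the class with 7 or more the lowest, with an uneven order between them. Pnisr, with none annotated, was among the lowest, and Rsrp1, the lowest, had 1. Sugp1, with 56.1% of its exonic bases in retained-intron transcripts alone, was not lower.

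Nuclear long noncoding RNAs moved in the same direction as the members. Their sum over 9 genes ranged from 1538 to 1811 CPM over the WT libraries, from 392 to 464 over those of OMD-/- and from 259 to 364 over those of PRELP-/-. Of 8 tested, 6 were called lower in each knockout, among them Malat1 and Neat1, which reside in and beside speckles. Over all tested genes, 15.1% were called lower in OMD-/- and 5.89% in PRELP-/-. The mean of Neat1 was 385 CPM over the WT libraries, 20.4 over those of OMD-/- and 16.4 over those of PRELP-/-, and that of Malat1 was 937, 298 and 204. Tug1 was not called, with log2 fold changes of -0.05 and -0.25, nor was Pvt1. Transcripts of the 13 mitochondrially encoded mRNAs were at 0 in all libraries. The part of nuclear RNA content in the members' values was not tested.

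Cell type markers differed between the genotypes as well. The counts of markers called higher stand beside 14.3% of all tested genes in OMD-/- and 1.4% in PRELP-/-. Summed fibroblast markers ranged from 8159 to 9320 CPM over the WT libraries, from 17470 to 21301 over OMD-/- and from 9865 to 19366 over PRELP-/-, with 4 and 2 of 7 called higher. Urothelial markers were 13010 to 14474, 15579 to 20811 and 17707 to 28974 CPM, with 3 and 1 of 11 called higher. Leukocyte markers were 547 to 616, 753 to 1416 and 480 to 787 CPM, with 5 and 0 of 8 called higher, and smooth muscle markers 318 to 1311, 401 to 819 and 239 to 261, with none called. Endothelial markers were 158 to 373, 432 to 511 and 278 to 496 CPM, and nerve markers 466 to 550, 457 to 572 and 579 to 920. In bulk tissue, fewer cells of a type and less RNA per cell cannot be told apart, and the part of cell makeup in the members' values was not tested.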

How the data were processed

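Poly(A)-selected, strand-marked libraries with molecular identifiers were made from bladder RNA, 4 from WT, 3 from OMD-/- and 3 from PRELP-/-. The deposited files hold whole-number read counts per gene for 55536 genes, made by the authors with featureCounts and not normalized. The column headers name HISAT2, while the submitters' processing notes name STAR 2.5.2b and the build GRCm38 (beside hg38). Annotation, strand setting and use of the identifiers are not given in the sources used here. Gene identifiers all match GENCODE vM21, which gave symbols, transcripts, introns and sequences. The deposited tables of the authors' own DESeq2 comparisons, with fold changes and p-values of each knockout against WT, were not used.

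Each pair of genotypes was fitted alone with edgeR 4.0.16 in R 4.3.3 (TMM, filterByExpr, robust two-sided quasi-likelihood test) and Benjamini-Hochberg adjustment over all tested genes at 0.05. Folds are edgeR log2 fold changes. DESeq2 1.42.0 and limma 3.58.1 served as alternatives. The code was tested on simulated counts. Members and gene lists were chosen with earlier results of these data known. Genes given in every library were the 4 that led the choice, the CLK kinases, Srsf1 to Srsf3, the lowest and highest of each role by OMD-/- fold change, the 5 lowest other genes called in both knockouts at a mean of at least 1 CPM (none was called higher in both), and Ogt, Mat2a and Nxf1. Genes outside this rule were named after their values were seen. Same-numbered PRELP-/- and OMD-/- libraries deviated together over genes (correlations of 0.303, 0.181 and 0.148), and so were treated as paired in an added fit. Same-numbered libraries of a knockout and WT did not in every pair. Precision depends on the counts and on the spread between libraries. In PRELP-/- against WT the SE was largest for U2af1l4 (0.55), the member with the fewest counts, and next for Srsf7 (0.35).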

Additional observations from a re-analysis of the deposited data

How the results depend on the processing

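Gene counts cannot tell isoforms apart, and 1 library of PRELP-/- differs in its dependence on length. Y-linked levels split the WT libraries, as do smooth muscle and endothelial markers. Members called lower in OMD-/- numbered from 29 to 33 when 1 library was left out, and in PRELP-/- from 17, with PRELP-/- replicate 2 left out, to 31, with replicate 1 left out. Members called higher were 0 to 1 and 0, and none was called between the knockouts. Other splicing genes called in OMD-/- were 28 to 40 lower and 8 to 18 higher, and in PRELP-/- 12 to 36 lower and 0 to 10 higher. The median of the members in OMD-/- was from -0.92 to -0.85 without 1 library. It was -0.85 with no filter and with DESeq2, -0.87 with the replicate block, and -0.86 with all 3 groups in one fit and with the closest pairs of libraries summed. The replicate block, for WT comparisons whose numbers do not pair the libraries (correlations from -0.0998 to 0.137), left 8 members called lower in PRELP-/-, those with log2 fold changes below -1.5 in both knockouts, and 2 other splicing genes, where 115 of all 16581 genes were called lower against 977 without the block, and 8 other genes called higher in OMD-/-. It changed no call of a member between the knockouts, and over all genes it called 1675 of 16647 higher in OMD-/-. Limma-voom called 2 members higher in OMD-/-, 1 in PRELP-/- and 3 between the knockouts. It called 33 other splicing genes higher in OMD-/-, and 52 lower and 23 higher in PRELP-/-. Over all genes it called 3663 of 16647 higher in OMD-/-, and 3571 of 16581 lower and 3402 higher in PRELP-/-. Between the knockouts it called 694 of 15805 lower and 318 higher. DESeq2 called 3 other splicing genes higher in PRELP-/-, where it called 924 of all 20249 genes higher. All 3 groups in one fit gave 19 other genes lower and 3 higher in OMD-/- and 5 higher in PRELP-/-. Over all 16912 genes that fit gave 1375, 1110 and 976. The Y-linked level as covariate gave 29 other splicing genes higher in OMD-/-, where 3303 of all 16647 genes were. Chosen after seeing the data, summing the closest pairs of libraries, which left 2 units in each genotype, gave 0 members and 0 other genes lower in PRELP-/-, where 13 of all 18335 genes were, and 22 lower and 2 higher others in OMD-/-, where 27 members stayed lower. The libraries with under 1 CPM summed over the Y-linked genes (WT replicates 3 and 4, OMD-/- replicates 2 and 3) gave 34 members lower, 2 higher and 48 others higher in OMD-/-. Over all genes these libraries gave 4408 lower and 4581 higher of 16740, and the summed pairs in OMD-/- 1034 lower and 624 higher of 18310. Srsf3 in PRELP-/- changed sign, to -0.47 by limma-voom and -0.43 without PRELP-/- replicate 1, and was 0.22 without replicate 2. Tra2b there changed sign to -0.28 by limma-voom. Of 1485 alternatives for the genes given in every library, 1292 kept their sign and side of the threshold, 81 lost the call, 22 gained it, and 3 changed sign and gained a call, those of Srsf3 and Tra2b above. The other 87 changed sign with no call under either setting, 71 of them between the knockouts. The causes of these changes were not tested.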
